A study of Bombus terrestris with 33 samples.

Results

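The 100 contigs described here varied most between individual brains of Bombus terrestris queens sampled before hibernation. They were chosen by measured values. Counts were scaled to the library total as CPM, the usual unit of read share, and written as log2(CPM + 1). Each library was centred on its median over contigs that averaged 5 CPM or more. Contigs under that mean and the 100 contigs highest in mean CPM were left out, which kept 2845 of 10672 contigs. In the 17 queens sampled before hibernation, each group's mean was subtracted, and the 100 contigs with the highest standard deviation (SD) of the residuals were taken. The spread before hibernation and the correlations behind it are therefore a description of the choice and were not tested. The queens sampled after hibernation entered the choice only through the mean CPM.

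Poly(A)-selected RNA from 33 single brains was sequenced, 1 library per queen. SR queens (n = 8) had mated, been kept at 5 °C for 8 weeks to hibernate and carried developed ovaries with mature eggs 1 month later. FR queens (n = 8) had the same history with undeveloped ovaries. SM queens (n = 8) were frozen 3 days after a successful mating, and FM queens (n = 9) were handled alike but had not mated; both had been offered males from an age of 5 days. The SR and FR queens came from colonies C2, C3 and C9 and the SM and FM queens from colonies C2, C3 and C7, all of commercial stock. The labels give estimated ages, read here as days, of 94 to 97 for SR, 91 to 102 for FR, 11 to 20 for SM and 6 to 27 for FM queens. Stage, age and hibernation change together and cannot be told apart. Between FR and FM queens mating differs as well, since only the FR queens had mated.

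Young bumblebee queens leave their colony to mate, pass the winter alone in diapause and found a colony of their own in spring. The ovaries develop after diapause, under juvenile hormone and food, while the brain of a founding queen directs foraging, brooding and egg laying. A contig is an assembled stretch of transcript, and several contigs can come from 1 gene. The deposited table names contigs only, and 0 of its identifiers matched the 13398 genes of the reference table, so no function is given for any contig and brain markers could not be checked. Because each library holds the RNA of many cell types, fewer cells of a type and less RNA per cell cannot be told apart.

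Library totals ranged from 42858092 to 61560882 counts. No chosen contig had a count of 0 in any library, and the lowest group mean count of any of them was 89.75, where counting alone gives an SD of 0.152 on the log2 scale. FM replicate 6 stood apart. It held 19.5% of the squared residuals of the 100 contigs over the 17 FM and SM queens and was the most extreme queen for 42 of them. Its total of 49537786 counts lay within the range of the others, it came from colony C3, and its estimated age of 27 was the highest before hibernation. Among SR and FR queens, FR replicate 37 of colony C9 was the most extreme for 33 contigs, with 12.1% of the squared residuals. Results that rest on these libraries are given with and without them where both were computed.

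The residual SD of the 100 contigs ran between 0.84 and 3.70 on the log2 scale, with a median of 1.09, against a median of 0.19 for the 2745 contigs that could be chosen but were not. Contig1533 and Contig1449 were the last inside, with SDs of 0.843 and 0.840, and Contig7673 and Contig4651 the first outside, with 0.839 and 0.836. Their mean abundance had a median of 33.7 CPM and a range of 5.17 to 1595 CPM, against a median of 76.0 CPM for all 2845. Within the groups the median SD was 0.91 in SM and 1.24 in FM queens. In 19 contigs a single queen held more than 50% of the squared residuals. Colony terms fitted to these residuals took up a median of 8.71% of the variance, against 9.79% for the 2845 contigs. Such a fit takes up some variance by chance.

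The most variable contig, Contig45, had an SD of 3.70 and took either a high or a low level. Over 1000 CPM were found in 3 of 8 SM queens, at 1451 to 7869.5 CPM, and in 6 of 9 FM queens, at 1497 to 6115 CPM. The other SM queens had 9.52 to 56.8 CPM and the other FM queens 5.40 to 65.3 CPM, so that no queen before hibernation lay between 65.3 and 1451 CPM. All 8 SR queens were high, at 1725 to 3093 CPM. Of the FR queens only FR replicate 37 was high, at 2664 CPM, and the other 7 had 31.9 to 285 CPM. Contig45 was singled out for this gap after its values were seen.

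Contig8572 (SD 3.22) was high in 1 SR, 1 FR and 1 SM queen and in 6 of 9 FM queens. SR replicate 44 had 422 CPM and its group otherwise 0.449 to 2.10 CPM, and FR replicate 38 had 35.5 CPM and its group otherwise 0.283 to 2.99 CPM. SM replicate 25 had 571 CPM, against at most 9.35 CPM in the other SM queens. Of the FM queens, 6 had 36.8 to 1488 CPM and the other 3, all from colony C2, had 0.179 to 0.476 CPM. The SM queens of C2 had 2.86 and 9.35 CPM. Contig735 (SD 2.55) had a median of 1067 CPM in SR (range 79.7 to 3354), 49.3 CPM in FR (43.3 to 405), 98.1 CPM in SM (52.7 to 4039) and 554 CPM in FM queens (38.1 to 7645). Contig1859 (SD 2.44) had a median of 1662 CPM in SR (15.9 to 2684), 11.8 CPM in FR (1.01 to 1158), 309 CPM in SM (23.7 to 2860) and 1081 CPM in FM queens (13.9 to 4461). All of these ranges overlapped between groups.

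**Figure D1:**
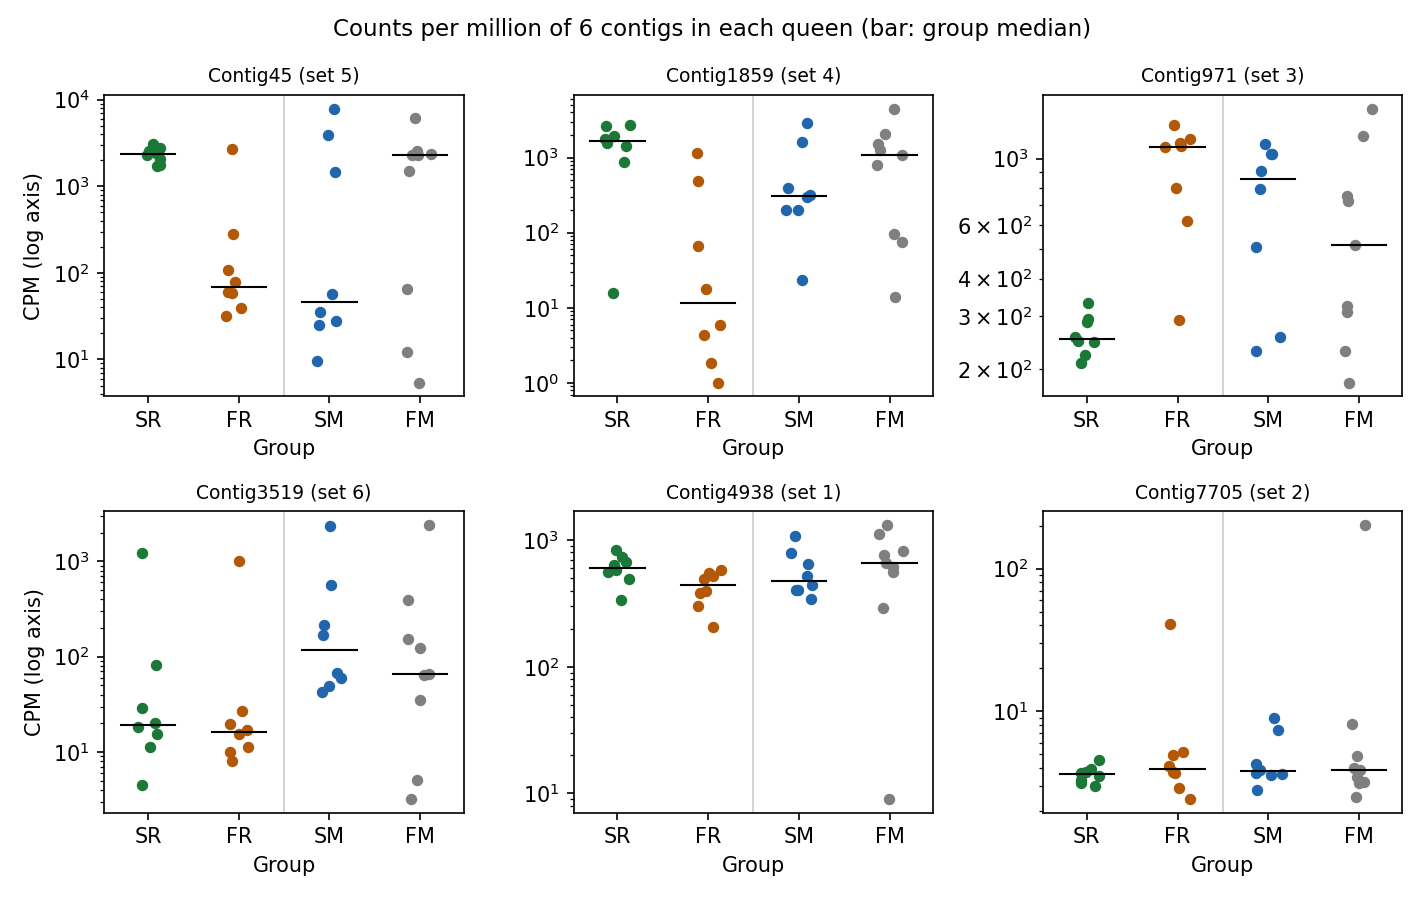
CPM (log axis) of 6 contigs in each queen, by group, with SR and FR left of SM and FM; each point is 1 queen and each bar a group median. Contig45 takes high or low levels before hibernation, while all 8 SR queens lie at 1725 to 3093 CPM and 7 of 8 FR queens at or below 285 CPM; in Contig4938 and Contig7705 a single FM queen lies far from the rest.

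The 100 contigs did not vary as 1 block. Average-linkage clustering of the residuals of FM and SM queens, on 1 minus Pearson's r with a limit of 0.5, gave 7 sets of at least 5 contigs that held 82 of the 100; the other 18 are in no set. The sets are numbered by size, with 23, 17, 12, 11, 9, 5 and 5 contigs. The first 3 principal components of the residuals held 31.7%, 22.3% and 15.5% of the variance, against 28.0%, 22.7% and 10.7% for the 2845 contigs. A set's score in a queen is the mean over its contigs of the centred log2 value, after subtracting each contig's mean over the FM and SM queens.

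**Figure D2:**
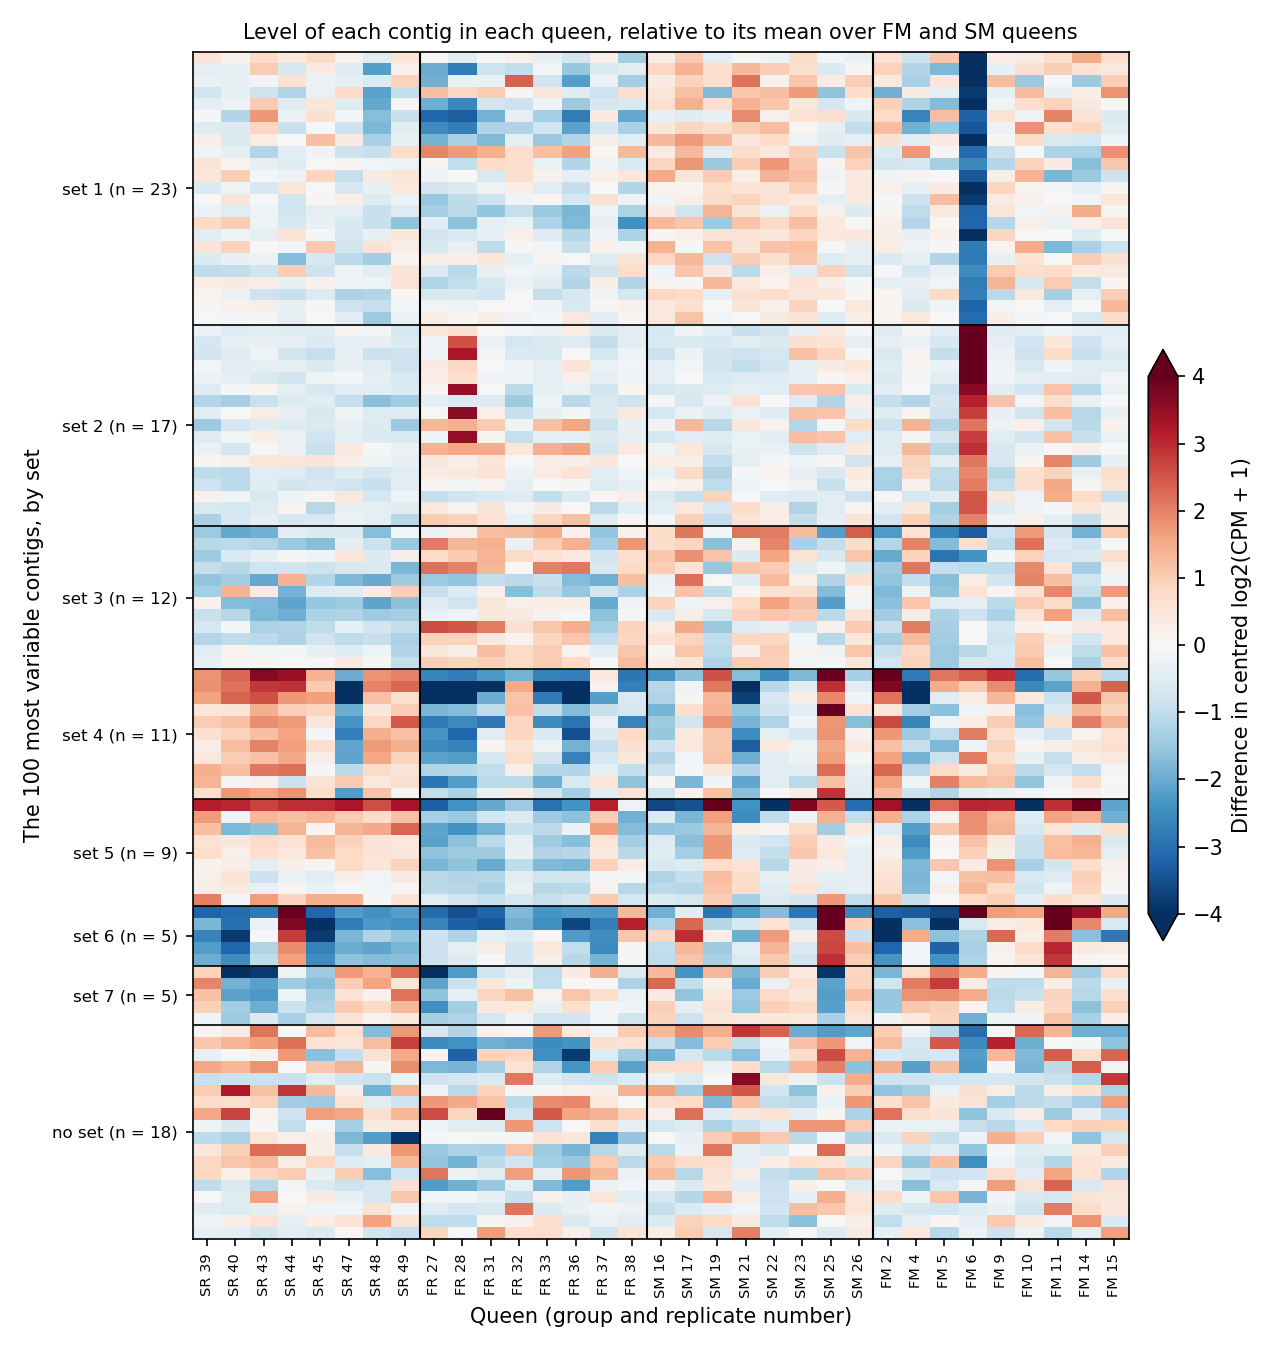
Centred log2(CPM + 1) of the 100 contigs (rows, grouped by set) in the 33 queens (columns, by group), as the difference from each contig's mean over FM and SM queens; colours saturate at the ends of the scale. Sets 1 and 2 are marked by the single column of FM replicate 6, and sets 3 and 5 take opposite colours in most queens.

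Sets 1 and 2 rested on FM replicate 6. That queen was the most extreme for 22 of the 23 contigs of set 1 and all 17 of set 2. Its score was -3.63 in set 1, where the next lowest FM queen had -0.60, and 3.27 in set 2, where the next highest had 0.56. Contig4938 of set 1 had 9.06 CPM in FM replicate 6 and 292 to 1318 CPM in the other FM queens. Contig8815 of set 1 had 1.35 CPM there and 34.3 to 79.3 CPM in the other FM queens. Contig7705 of set 2 had 203 CPM there and at most 8.09 CPM in the other FM queens, and Contig10111 had 108 CPM against at most 3.35 CPM. The mean correlation within the sets was 0.62 and 0.66 with this queen and 0.15 and 0.26 without it. Choosing again without it kept 77 of the 100 contigs, among them 12 of set 1, 5 of set 2 and every member of sets 3 to 7 and of no set.

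Sets 3, 4 and 5 varied across many queens. Their mean correlations before hibernation were 0.63, 0.70 and 0.67, and 0.65, 0.73 and 0.66 without FM replicate 6. Set 3 ran against the other pair, with a mean correlation of -0.47 with set 4 and -0.53 with set 5, while sets 4 and 5 had 0.47 with each other. The scores of sets 3 and 5 had opposite signs in 15 of the 17 FM and SM queens, with set 3 below 0 in 7 of them and above 0 in 8. Set 3 is led by Contig971 and Contig1858, set 4 by Contig1859 and Contig282, and set 5 by Contig5935 and Contig5936, the contigs with the highest mean correlation with the rest of their set.

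Contig971 shows the 2 ends of set 3. It had 231 CPM in SM replicate 25 and 1120 CPM in SM replicate 17, and 181 CPM in FM replicate 2 and 1464 CPM in FM replicate 4. In the same queens Contig1859 of set 4 went the other way, with 2860 CPM in SM replicate 25 and 399 CPM in SM replicate 17, and 4461 CPM in FM replicate 2 and 13.9 CPM in FM replicate 4. Contig5935 of set 5 had 20.1 CPM in SM replicate 25 and 5.39 CPM in SM replicate 17, and 18.2 CPM in FM replicate 2 and 2.66 CPM in FM replicate 4. These queens were picked as the lowest and highest of their group for Contig971.

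Sets 6 and 7 were small and tight, with mean correlations of 0.75 and 0.73. Set 6 was high in few queens, with scores of 3.68 in SM replicate 25 and 3.81 in FM replicate 11. It was low in FM replicates 2 and 5, at -3.53 and -3.03. Its mean FM scores were -2.43 in C2, 0.55 in C3 and 1.44 in C7, and its mean SM scores 0.29, -0.63 and 0.88. The median colony share before hibernation was 32.8% in set 6, 27.6% in set 5 and 3.30% to 8.33% in the other sets, and was not tested. Its leading contig, Contig3519, had 2334 CPM in SM replicate 25 and at most 559 CPM in the other SM queens, and 2404 CPM in FM replicate 11 and at most 391 CPM in the other FM queens. Contig4893 of the same set had 984 CPM and 1038 CPM in those queens. Set 7, led by Contig5694 and Contig1759, had its lowest score in SM replicate 25, at -2.34, and its highest in FM replicate 5, at 1.70. Contig1759 had 43.4 to 2005 CPM in SM and 180 to 3326 CPM in FM queens.

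The SR and FR queens allow a look at the same contigs in libraries that did not choose them. Their median residual SD over SR and FR queens was 0.77, against 0.16 for the 2745 contigs not chosen. Of the 100, 76 had an SD above 0.5 there, against 2.44% of the contigs not chosen, and 65 were among the 100 most variable contigs of SR and FR queens, a list that covers 3.51% of the 2845. The spread was smaller than before hibernation for most: 12 of 100 had a higher SD in SR and FR queens, against 22.7% of the contigs not chosen. That count was 28 without FM replicate 6, and a list chosen for a high SD before hibernation is high there by construction. Within groups the median SD was 0.61 in SR and 0.83 in FR queens. Colony terms, which take up some variance by chance, took up a median of 16.2% of the residual variance, against 18.8% for the 2845 contigs.

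**Figure D3:**
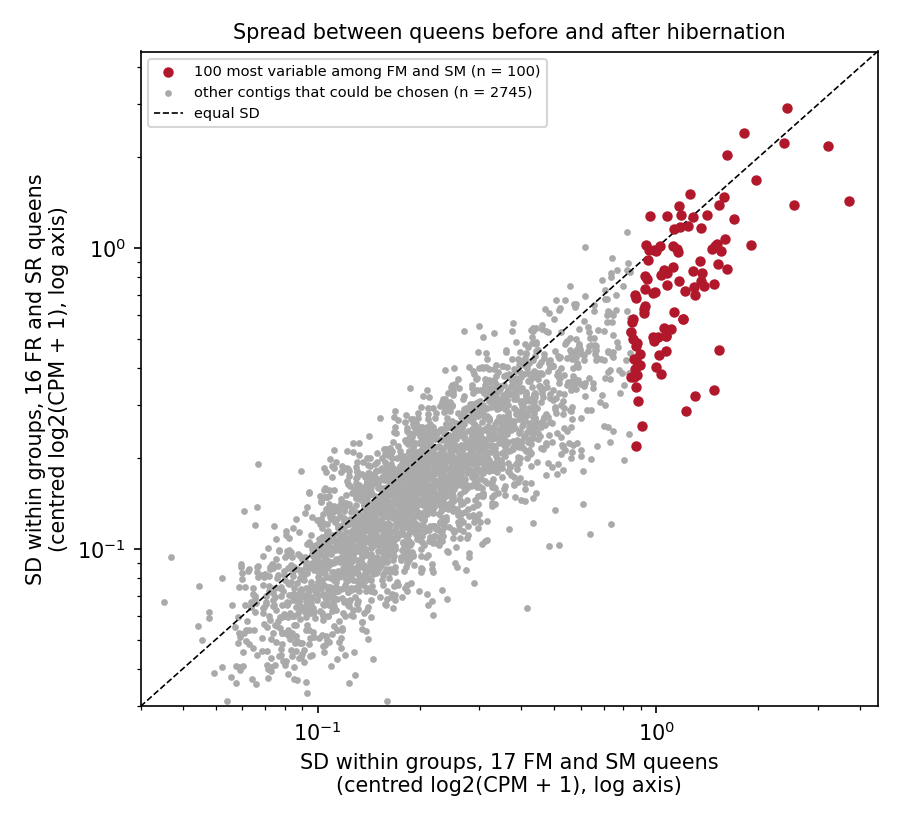
Residual SD of each contig over 16 SR and FR queens (y) against 17 FM and SM queens (x), on log axes, for the 100 chosen contigs and the 2745 not chosen. The chosen contigs lie at the right by the choice; 76 of them exceed an SD of 0.5 after hibernation, and 12 lie above the dashed line of equal SD.

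The correlations recurred in part. Over the 4950 pairs of the 100 contigs, the correlations in SR and FR queens and those in FM and SM queens had an r of 0.51 across pairs, which are not independent. The 268 pairs with r above 0.7 in FM and SM queens had a median r of 0.58 in SR and FR queens, against 0.02 over all pairs, and 94.0% were positive. The 184 pairs below -0.7 had a median of -0.39, and 90.8% were negative. These pair values are given only with FM replicate 6 and FR replicate 37 included. Between sets 1 and 2 the mean correlation before hibernation was -0.58 with FM replicate 6 and -0.07 without it. Sets 6 and 7 had mean correlations of 0.83 and 0.83 after hibernation and set 4 of 0.65. The set 4 value is given only with SR replicate 47, whose set 4 score was -2.29, with the next SR queen at 0.68. Set 6 had 0.59 without SR replicate 44. Sets 1 and 2 had 0.23 and 0.37.

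In sets 3 and 5 the correlation after hibernation rested on 1 queen. Their mean correlations within groups were 0.35 and 0.57 with FR replicate 37 and 0.02 and 0.23 without it, and the correlation between the sets was -0.44 with it and -0.07 without it. What remained was a separation by group. The scores of sets 3 and 5 had opposite signs in all 16 queens, with set 3 below 0 in all 8 SR queens and above 0 in 7 of 8 FR queens. FR replicate 37 was the exception, with the signs of the SR queens. FR replicate 38 came from the same colony, C9, and scored with the other FR queens.

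SR queens fell together at one end of sets 3 and 5. In set 3 their scores were -0.99 to -0.63, with a mean of -0.84 ± 0.12 (SD, n = 8), while FR queens had 0.15 to 0.84 apart from FR replicate 37 at -1.11. The SM scores of set 3 spanned -0.94 to 1.14 and the FM scores -1.57 to 1.18, so 5 of the 17 queens before hibernation fell within the SR range. In set 5 SR queens scored 0.32 to 1.10, and FR queens -1.66 to -0.67 apart from FR replicate 37 at 0.97. SM queens spanned -1.46 to 1.72 and FM queens -2.13 to 1.38, again with 5 of 17 within the SR range. No SR or FR queen lay beyond the FM and SM queens in either set.

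Set 4 separated the groups with more overlap. SR queens scored 0.68 to 1.87 except SR replicate 47 at -2.29, and FR queens scored -3.06 to 0.39 with a median of -1.66. The SM scores spanned -2.33 to 2.40 and the FM scores -2.03 to 2.14. Of the FR queens, 3 scored below every queen sampled before hibernation. SR replicate 47, of colony C9, had 15.9 CPM of Contig1859 and 1.80 CPM of Contig282, where the other SR queens had at least 869 and 12.9 CPM, but its set 3 and set 5 scores of -0.63 and 1.09 lay with those of the other SR queens.

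Sets 6 and 7 did not separate the groups. In set 6, SR replicate 44 scored 3.04 and the other SR queens -3.30 to -1.07, while FR replicate 38 scored 1.10 and the other FR queens -2.38 to -0.82. Contig3519 had 1228 CPM in SR replicate 44 and at most 81.5 CPM in the other SR queens, and 1002 CPM in FR replicate 38 and at most 27.0 CPM in the other FR queens. Each of the 4 groups thus held 1 queen with over 1000 CPM of this contig. Set 7 spanned -2.17 to 1.31 in SR and -2.35 to 0.39 in FR queens. In sets 1 and 2 every SR and FR queen lay inside the range of the FM and SM queens, whose lowest score in set 1 and highest in set 2 are those of FM replicate 6. Without that queen, SR replicate 48 (-0.90) and FR replicates 27, 28 and 36 (-0.76 to -0.99) lay below the lowest FM or SM score of set 1, -0.60. FR replicate 28, at 1.28, then lay above the highest of set 2, 0.56.

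**Figure D4:**
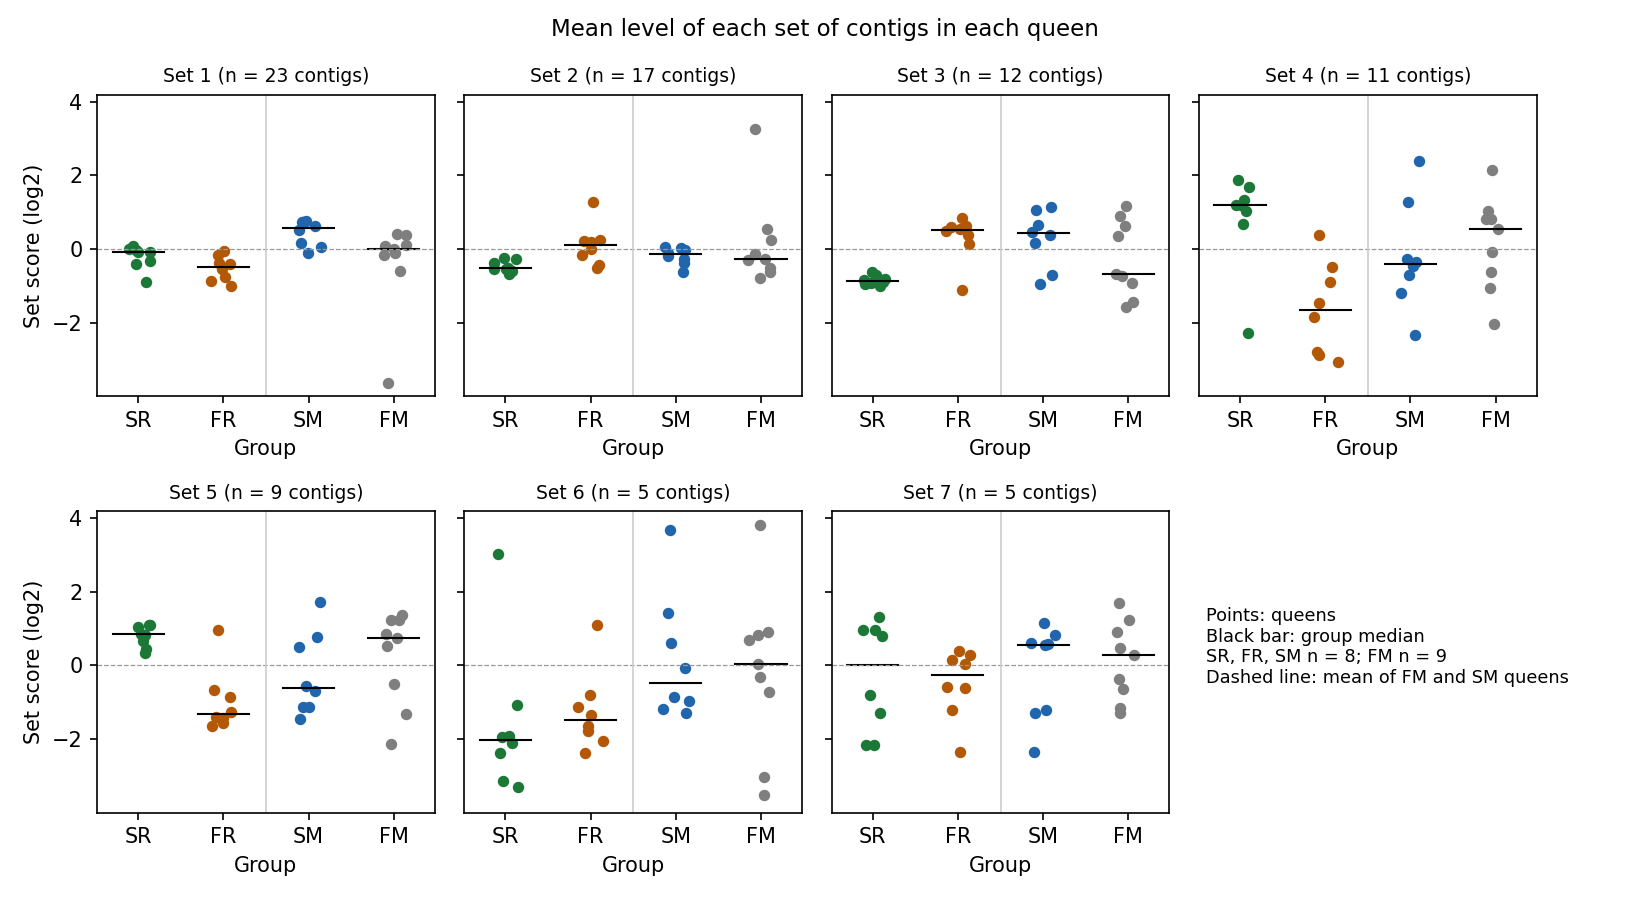
Score of each of the 7 sets in each queen, by group, with SR and FR left of SM and FM; points are queens, black bars group medians and the dashed line the mean of FM and SM queens. In sets 3 and 5 the 8 SR queens lie close together on one side and 7 of 8 FR queens on the other, with FM and SM queens on both sides.

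The test of SR against FR queens asked whether the level of these contigs differed with ovary development. With edgeR's quasi-likelihood test over all contigs and Benjamini-Hochberg adjustment, 26 of the 100 were called, 18 higher and 8 lower in SR queens. That is below the share called among the 2845 contigs, 38.7%, with 22.2% higher and 16.5% lower, and near the 29.5% of all 5606 contigs tested. The spread in this test was estimated over all libraries together, among them the FM and SM queens whose spread chose these contigs. The choice itself therefore lowers the share called, and the shortfall is no separate result. The differences were larger in size: 46 of the 100 differed over 2-fold, called or not, against 3.06% of the 2845. A wide spread between queens also widens differences of group means, so this size is no separate result. Between SM and FM queens, with 0 called, 19 of the 100 differed over 2-fold, against 0.703% of the 2845. No chosen contig had all SR queens above all FR queens and 2, Contig3915 of set 3 and Contig5899 of set 2, had all SR queens below, against 1.37% of the 2845 with groups that did not overlap in either direction. The count was 16 without SR replicate 39 and 37 without FR replicate 37, where the share of the 2845 was 26.7% and 47.4%. It was 0 without colony C2 or without colony C3, where the test called 0 of all contigs.

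The calls were unevenly spread over the sets, beside 38.7% of the 2845 contigs called, 22.2% higher and 16.5% lower. The contigs of a set were grouped for their correlation, so calls within a set are not separate results. In set 5, 8 of 9 contigs rose in SR queens and the median log2 fold change was 1.71. In set 4, 6 of 11 rose and all 11 had a positive value, with a median of 1.81. In set 3, 5 of 12 fell, with a median of -1.42. Set 1 had 1 contig that fell and set 2 had 2, sets 6 and 7 had 0 by edgeR, DESeq2 and limma-voom and 0 at an unadjusted p under 0.05 by edgeR, and 4 contigs of no set rose. The share called among the 2845 moved with single libraries too and stands in brackets. The set 3 count was 8 without FR replicate 37 (47.4%), and the set 4 count was 10 without FR replicate 32 (42.8%). The set 5 count was 5 without FR replicate 27 (30.6%), 28 (30.4%) or 38 (31.5%) and 3 without SR replicate 39 (26.7%).

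**Figure D5:**
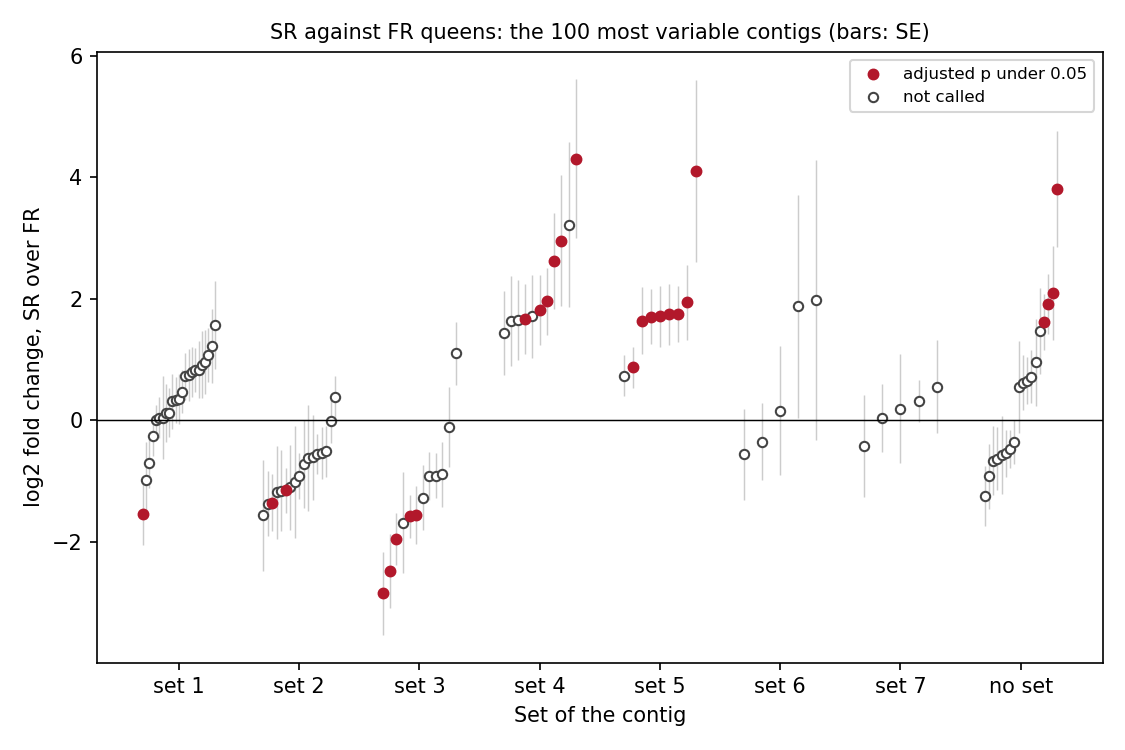
Log2 fold change of SR over FR queens for the 100 contigs, by set, with SE bars; filled points passed an adjusted p of 0.05 (edgeR) and open points did not. The called contigs of set 3 lie below 0 and those of sets 4 and 5 above 0.

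The direction of sets 3, 4 and 5 was the same in each colony by mean score, with 2 or 3 queens behind each mean. In set 3 the means were -0.83 in SR and 0.63 in FR queens of C2, -0.87 and 0.39 in C3, and -0.81 and -0.25 in C9. In set 4 they were 1.19 in SR and -2.44 in FR queens of C2, 1.41 and -1.45 in C3, and 0.04 and -0.68 in C9. In set 5 they were 0.71 in SR and -1.54 in FR queens of C2, 0.71 and -1.12 in C3, and 0.94 and 0.05 in C9. The gap was smallest in C9, the colony of FR replicate 37 and SR replicate 47. There FR replicate 37 scored on the SR side in sets 3 and 5, so the C9 direction rested on FR replicate 38, at 0.61 and -0.87. In set 4 the C9 FR scores of -0.89 to -0.48 lay within the C9 SR range of -2.29 to 1.21.

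The largest called changes with the same direction in every colony lay in sets 3, 4 and 5. Contig735 of set 4 and Contig45 of set 5, whose levels are given above, were higher in SR queens, with log2 fold changes of 4.31 ± 1.31 (SE; edgeR adjusted p = 0.0170) and 4.10 ± 1.49 (SE; edgeR adjusted p = 0.0393). Contig3989 of set 3 had a median of 1.65 CPM in SR (0.979 to 4.12) and 16.6 CPM in FR queens (1.5 to 27.1), and fell by 2.85 on the log2 scale (SE 0.686; edgeR adjusted p = 0.00576). Contig3915 of set 3 had a median of 3.10 CPM in SR (1.11 to 4.39) and 26.8 CPM in FR queens (4.40 to 37.3), and all SR queens lay below all FR queens, by a narrow margin. FR replicate 37 had the lowest level of both among FR queens and the highest level of Contig45 and Contig735. Contig735, Contig3989 and Contig3915 lost their call in 2 of the 42 alternatives tried, those without colony C2 or C3. Contig45 lost it in 15, among them 11 that left out 1 library, with edgeR adjusted p-values of 0.0512 to 0.0803: FR replicates 27, 28, 31, 32, 33, 36 and 38 and SR replicates 39, 40, 43 and 45.

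Between SM and FM queens no chosen contig was called by edgeR, DESeq2 or limma-voom, and the share over all contigs tested by edgeR was 0%. At an unadjusted p under 0.05 there were 14 of 100, against 295 of 2845. The lowest p on either side belonged to Contig1573, with a median of 21.7 CPM in SM (9.85 to 40.5) and 9.33 CPM in FM queens (0.222 to 37.9; edgeR adjusted p = 0.348), and Contig4029, with 114 CPM in SM (93.4 to 282) and 149 CPM in FM queens (83.2 to 851; edgeR adjusted p = 0.348). FM replicate 6 had the lowest level of the first and the highest of the second. The median absolute log2 fold change was 0.55, against 0.07 for the 2845, and the wide spread of the chosen contigs also widens such differences.

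FR against FM queens compared the unsuccessful queens of both stages. Of the 100 contigs, 14 were called by edgeR, 2 higher and 12 lower in FR queens, against 23.2% of the 2845 (9.77% higher, 13.4% lower) and 17.3% of all contigs tested. Here too the spread that chose the contigs enters the test and lowers the share called. The lower ones included 4 of 9 in set 5 and 2 of 11 in set 4, and 1 of 12 in set 3 was higher. Contig5138, in no set, had a median of 0.714 CPM in FR (0.390 to 11.4) and 6.04 CPM in FM queens (0.242 to 61.2), and fell by 3.98 on the log2 scale (SE 1.04; edgeR adjusted p = 0.0132). Contig735 fell by 4.48 (SE 1.44; edgeR adjusted p = 0.0342). Contig8577, in no set, had a median of 11.5 CPM in FR (1.45 to 98.0) and 2.42 CPM in FM queens (0.323 to 15.1), and the log2 difference, FR over FM, was 2.06 ± 0.59 SE (edgeR adjusted p = 0.0196). Contig2986 of set 3 had a median of 184 CPM in FR (27.2 to 448) and 69.1 CPM in FM queens (29 to 317), and the log2 difference was 1.27 ± 0.40 SE (edgeR adjusted p = 0.0324). The ranges of the groups overlapped in each. Contig8577 is the 1 chosen contig whose mean over FM and SM queens, 4.76 CPM, was under the minimum, which it passed through the queens after hibernation. Its higher level in FR queens was thus favoured by the choice, and its call is no support for a difference.

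The FR against FM count depended on single libraries. The share called among the 2845 contigs moved with it and is given beside each count. Among FM queens, leaving out replicate 2 gave 8 (13.7%), replicate 4 gave 22 (35.3%), replicate 5 gave 9 (13.2%), replicate 6 gave 29 (26.5%) and replicate 9 gave 7 (15.7%). Among FR queens, leaving out replicate 27 or 28 gave 7 (13.0% and 13.1%), replicate 31 gave 9 (18.0%), replicate 33 gave 4 (12.0%), replicate 36 gave 5 (11.6%) and replicate 37 gave 23 (32.2%). Without colony C2 or without colony C3 it was 0 (0.0351% and 0%). Of the contigs named, Contig5138 lost its call without FM replicate 9 (edgeR adjusted p = 0.0643), and Contig8577 without FR replicate 31 or 33 (edgeR adjusted p = 0.0697 and 0.0613). Contig735 lost it when any of FM replicates 2, 5 and 9 or of FR replicates 27, 28, 31, 33 and 36 was left out (edgeR adjusted p of 0.0532 to 0.103). Contig2986 lost it when any of FM replicates 2, 5 and 9 or of FR replicates 27, 28, 33 and 36 was left out (edgeR adjusted p of 0.0594 to 0.0772).

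SR against SM queens compared the successful queens of both stages. No chosen contig was called by edgeR, where the share over all contigs tested was 0%; DESeq2 called 3, against 1.13% of the contigs that could be chosen and had a p, and limma-voom 19, against 10.2% of the 2845. At an unadjusted p under 0.05 edgeR had 16 of 100, against 339 of 2845, and 8 of these lay in set 3. Contig971 of set 3 had a median of 252 CPM in SR (210 to 333) and 853 CPM in SM queens (231 to 1120), and the log2 difference, SR over SM, was -1.39 ± 0.40 SE (edgeR adjusted p = 0.194). It passed in 3 of the 42 alternatives, with DESeq2 (adjusted p = 0.0384), limma-voom (adjusted p = 0.00830) and edgeR with no colony term (adjusted p = 0.0458), and its adjusted p ranged up to 0.999 over them. Contig2187 of set 5 had a median of 16.6 CPM in SR (6.01 to 31.2) and 4.52 CPM in SM queens (2.35 to 22.9), and the log2 difference was 1.20 ± 0.56 SE (edgeR adjusted p = 0.434). It passed in 1 of the 42, with limma-voom (adjusted p = 0.00988), and its adjusted p also ranged up to 0.999. The FR queens of the stage comparison above and the SR queens of this one also enter the test of SR against FR queens, so these comparisons share libraries.

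The difference between the stages was tested as the SR over FR change minus the SM over FM change. The first is a change with ovary development and the second a change with mating, so unlike outcomes are compared. By edgeR 8 of the 100 passed, 5 positive and 3 negative, against 10.7% of the 2845 (5.2% positive, 5.48% negative) and 7.26% of all contigs tested. The spread that chose the contigs enters this test as well. Set 3 held the 3 negative ones, and sets 4 and 5 held 2 positive ones each. Contig2367 of set 4 had a median of 1113 CPM in SR (113 to 2826) and 96.4 CPM in FR queens (76.1 to 968), and of 292 CPM in SM (156 to 1709) and 875 CPM in FM queens (95.6 to 2828). Its difference between stages was 3.66 ± 1.12 on the log2 scale (SE; edgeR adjusted p = 0.0452). Contig5138 had a difference of 4.60 ± 1.34 (SE; edgeR adjusted p = 0.0409), Contig3989 of -2.90 ± 0.90 (SE; edgeR adjusted p = 0.0471) and Contig2986 of -1.91 ± 0.56 (SE; edgeR adjusted p = 0.0411).

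These calls were close to the threshold. Leaving out 1 library moved the count by over 1.5 times for 29 of the 33 libraries, all but FM replicate 6 and SR replicates 47, 48 and 49. It was 0 for 14 of them and as high as 24, without FM replicate 4, while the share called among the 2845 ran between 0% and 27.2% and was 25.2% without FM replicate 4. Without colony C2 or C3, and with no filter on low counts, it was 0. The 4 contigs named lost their calls without 20 to 24 of the 33 libraries, with edgeR adjusted p-values up to 0.0993, and none changed sign.

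Colony was tested in SR and FR queens only. Of the 100 contigs, 1 was called by edgeR, against 0.738% of the 2845 and 1.04% of the 5299 contigs tested. This was Contig3063, in no set (edgeR adjusted p = 0.0145). It had a median of 44.1 CPM in C2 (16.0 to 46.8, n = 5), 54.4 CPM in C3 (41.7 to 69.6, n = 6) and 8.12 CPM in C9 (1.76 to 15.7, n = 5). All C9 queens lay below all C2 and C3 queens. Without FR replicate 37 or SR replicate 48 the count was 2, against 0.879% and 0.457% of the 2845.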

How the data were processed

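Raw counts per contig, deposited by the authors as whole numbers, formed 1 column for each queen, per the file headers; 0 columns belonged to other samples. Libraries were made with an oligo-dT TruSeq kit and run on an Illumina HiSeq sequencer, per the labels' protocols. FastQC, TopHat, SAMtools and edgeR are named in the submitters' processing notes, without roles. The sources used here name no genome build, assembly or read counter. If reads were shared between similar contigs, their counts could be split. The tables of scaled scores were not used here.

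CPM were computed from the column totals. A pseudocount of 1 shrinks the SD of low contigs. Groups and colonies came from the labels, which describe separate queens with no shared numbers, so no pairing was used. Low counts were removed by filterByExpr (per group, minimum count 10), which all 100 contigs passed. A model with terms for group and colony was fitted to the 33 TMM-scaled libraries together, using the robust quasi-likelihood test of edgeR 4.0.16 (R 4.3.3), Benjamini-Hochberg adjustment over all contigs tested and calls at an adjusted p of 0.05. Each SE is the log2 fold change over the root of its F statistic. The colony test used the SR and FR libraries alone. Scripts were tested on simulated data. Clustering used scipy 1.17.1. Named contigs are those with the 4 highest SDs, the leads of each set, those at the rank limit and, per comparison, at most 2 higher and 2 lower with the largest called fold change and the same direction in every colony with both groups, or, with none called, the lowest p on each side; any other is said to be chosen later. Results were also computed with DESeq2 1.42.0, with voom and quality weights in limma 3.58.1, and under other scalings, no filter, no colony term, leaving out libraries or colonies, and other settings of the choice. DESeq2 gave no adjusted p for 9 of the 100 contigs (8 in the colony test), which were not counted. The contigs, sets and tests were chosen with earlier results of these data known.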

Additional observations from a re-analysis of the deposited data

Results flagged for a closer look

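Within each group, the highest and lowest queen were compared with the nearest other on the centred log2 scale, for the 7 set scores and the named contigs. Of 144 such sets of values, 28 held a queen whose gap to the next exceeded Dixon's 95% critical value for the group's size. Of these, 8 were among FM and SM queens, whose spread chose the contigs; they restate that choice and are a description. The other 20 were among the 72 sets of values of SR and FR queens. Chance alone flags about 1 in 20 where values played no part in the choice, and some named contigs were named for their difference between SR and FR queens. The sets of values are not independent, since many named contigs also enter a set score and the same queens recur among the flags. The count of flags is therefore a description.

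FM replicate 6 was apart from the other FM queens in set 1 (score -3.63) and set 2 (3.27), in Contig8815 (1.35 CPM) and Contig4938 (9.06 CPM) of set 1, and in Contig7705 (203 CPM) and Contig10111 (108 CPM) of set 2. FR replicate 28 was apart in set 2 (1.28) and Contig7705 (41.2 CPM, next 5.16 CPM).

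FR replicate 37 was apart from the other FR queens in set 3 (-1.11, next 0.15) and set 5 (0.97, next -0.67). Its levels stood out in Contig735 (405 CPM, next 78.1 CPM), Contig971 (291 CPM, next 619 CPM), Contig1449 (12.3 CPM, next 21.2 CPM) and Contig2187 (16.0 CPM, next 5.38 CPM). In each of these the value lay toward the SR queens.

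SR replicate 47 was apart from the other SR queens in set 4 (-2.29, next 0.68), with Contig735 at 79.7 CPM, Contig1859 at 15.9 CPM, Contig282 at 1.80 CPM and Contig2367 at 113 CPM, where the next SR queens had 797, 869, 12.9 and 764 CPM.

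In set 6, SR replicate 44 scored 3.04 and FR replicate 38 scored 1.10. Contig8572 had 422 CPM in SR replicate 44, 35.5 CPM in FR replicate 38 and 571 CPM in SM replicate 25. Contig4893 had 390 CPM in SR replicate 44 (next 63.2 CPM), and Contig3519 had 1002 CPM in FR replicate 38. Contig3915 had 1.11 CPM in SR replicate 49 (next 2.43 CPM), and Contig4029 had 282 CPM in SM replicate 19 (next 161 CPM).

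The SR over FR change differed from the SM over FM change by edgeR's test for 5 named contigs. The difference was 4.60 on the log2 scale for Contig5138, 3.66 for Contig2367, -2.90 for Contig3989, -1.91 for Contig2986 and -1.80 for Contig971 (edgeR adjusted p = 0.0348 for the last).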

How the results depend on the processing

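Other settings of the choice kept 71 to 100 of the 100 contigs. With a limit of 0.3 the sets held 41 contigs. The first component of FM and SM queens held 33.3% with a pseudocount of 5, 35.1% with colony removed and 29.4% to 38.5% with 1 library left out. That of SR and FR queens held 37.4% with TMM scaling, 38.1% with colony removed and 32.4% to 38.7% with 1 library left out. With 1 library left out, 10 to 28 contigs had a higher SD after hibernation.

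The share called among the contigs that could be chosen moved too and stands in brackets. SR against FR calls numbered 61 with limma-voom (67.6%), 0 without colony C2 (0%), 0 without colony C3 (0%) and 16 to 37 with 1 library left out (26.7% to 47.4%). FR against FM calls numbered 25 with DESeq2 (30.5%), 43 with limma-voom (54%), 9 with total counts (12.9%), 7 with no filter (16.9%), 0 without C2 (0.0351%), 0 without C3 (0%) and 4 to 29 with 1 library left out (11.6% to 35.3%). SR against SM calls numbered 3 with DESeq2 (1.13%), 19 with limma-voom (10.2%) and 3 with no colony term (0.844%). The difference between stages had 27 with DESeq2 (20.1%), 49 with limma-voom (55.1%), 0 with no filter (3.48%), 0 without C2 (0%), 0 without C3 (0%) and 0 to 24 with 1 library left out (0% to 27.2%). The colony test had 6 with DESeq2 (4.83%), 3 with limma-voom (2.32%), 2 with upper-quartile scaling (1.05%) and 1 to 2 with 1 library left out (0.105% to 1.37%). In SR against FR queens, set 3 had 8 with DESeq2 (43.4%) and 10 with limma-voom (67.6%), and 4 to 8 with 1 library left out (26.7% to 47.4%). Set 4 had 11 with limma-voom (67.6%) and 4 to 10 with 1 library left out (26.7% to 47.4%). Set 5 had 5 with no filter (31.4%), 4 with no colony term (41.1%) and 3 to 8 with 1 library left out (26.7% to 47.4%). All 3 sets had 0 without C2 and 0 without C3; these leave 2 colonies per stage and 1 shared between stages. Otherwise the cause was not tested. No named contig and no median of sets 3 to 5 changed sign. Total counts, the counts by set and the scores without FM replicate 6 were added after the data were seen. No paired analysis was possible because the groups share no replicate numbers.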

Other observations

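Contig numbers that follow each other were looked at after the values were seen. Among the 100 contigs, 7 pairs have consecutive numbers, and in 5 of them both contigs are in the same set. Contig282 and Contig283 of set 4 had a correlation of 0.99 in SR and FR queens and of 0.98 in FM and SM queens. Contig5935 and Contig5936 of set 5 had 0.94 and 0.99, and Contig5899 and Contig5900 of set 2 had 0.85 and 0.93, in the same order. Contig1858 of set 3 and Contig1859 of set 4 had 0.02 and -0.50. The median over the 7 pairs was 0.79 in SR and FR queens and 0.71 in FM and SM queens, against 0.19 and 0.21 over the 1623 consecutive pairs of the 2845 contigs. Whether any such pair comes from 1 gene was not tested.

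Contig4651, the second contig outside the list, was high in the same queens as set 6. It had 2819 CPM in SR replicate 44, 966 CPM in FR replicate 38, 2898 CPM in SM replicate 25 and 4538 CPM in FM replicate 11, against at most 914, 697, 775 and 1065 CPM in the other queens of each group.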
